A study of Mus musculus with 2 samples.

Results

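Neurons that descend from tanycytes, the radial glia-like cells lining the third ventricle of the hypothalamus, were followed by their open chromatin. They are the cells that the authors' deposited annotation calls Neuron: 3402 of 22285 cells, 882 of the 8948 cells of a control library and 2520 of the 13337 cells of an Nfia/b/x-deficient library. The name is the authors' own. It could not be checked against the neuronal genes Stmn2, Tubb3, Elavl4 and Dlx6, because regions are known by number alone, with no gene, position or sequence beside them. Chromatin at Nfia, Nfib and Nfix was for the same reason not analysed here, and both genotypes are taken from the labels.

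Tanycytes keep features of neural progenitors after birth, and in young animals a small part of their progeny are neurons. Nfia, Nfib and Nfix encode nuclear factor I transcription factors, which promote glial fate in the developing nervous system. As a progenitor becomes a neuron, regulatory DNA used by the progenitor closes and DNA used by neurons opens, so the set of open regions in a nucleus reflects both the cell's type and how far it has moved from its origin.

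Single-cell ATAC-seq, in which the Tn5 transposase cuts DNA that is open, was run on sorted GFP-positive cells from the mediobasal hypothalamus on postnatal day 8. All mice carried the Rax-CreER driver and a Cre-dependent Sun1-GFP nuclear tag. Rax is a gene active in tanycytes, and GFP stays in the descendants of recombined cells; which recombined cell gave a neuron was not recorded. The deficient mice also had floxed alleles of Nfia, Nfib and Nfix, and the control mice had none. No source used here gives the age at induction or the number of mice pooled. Each genotype had 1 library, so no difference between genotypes has a replicate check and no p-value is given. All intervals are 95% intervals for counting error only, and those of summed detections treat detections as independent, which makes them too narrow where cells differ.

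A detection is a region found open in a cell, and the matrix holds presence or absence only. Control neurons had a median of 3343 detections and deficient neurons one of 3305, against 4662.5 and 4191 in all other cells. Shallow cells were frequent among neurons: 31.7% of control and 22.2% of deficient neurons had under 2000 detections, compared with 7.53% and 8.73% of other cells. The libraries shared 204 cell barcodes, which 14 control and 32 deficient neurons carried, and only 2 of these barcodes were called Neuron in both.

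The larger share of neurons in the deficient library depended on the depth of the cells. Of all control cells 9.86% were neurons and of all deficient cells 18.9%, which gives a ratio of 1.92 (1.77 to 2.07). Among cells with 1000 to 2000 detections 267 of 874 control cells (30.5%) and 549 of 1490 deficient cells (36.8%) were neurons, a ratio of 1.21 (1.04 to 1.40). From 2000 to 4000 detections the shares were 8.36% and 19.6%, a ratio of 2.35 (2.03 to 2.71). From 4000 to 8000 they were 7.44% and 14.9%, a ratio of 2.00 (1.73 to 2.31), and at 8000 or more they were 6.12% and 12.2%, also a ratio of 2.00 (1.57 to 2.56). The excess in the deficient library was thus smaller among the shallow cells, where the share of neurons was high in both libraries. Below 1000 detections, 13 of 13 control and 11 of 14 deficient cells were called neurons.

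Nearly every region of the catalogue was found in some neuron. Of 107377 regions, 107000 were found in at least 1 control neuron and 107368 in at least 1 deficient neuron. Few were common: 3050 regions were open in 20% or more of control neurons and 2149 in 20% or more of deficient neurons. In each library 3 regions were open in at least 50% of neurons, and the most common region was found in 71.5% of control and 69.8% of deficient neurons. These counts describe sparse sampling of each nucleus as well as its chromatin.

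Neurons stood apart from the other cells of their own library more widely in the control than in the deficient library. The level of a region was taken as its detections per 1000000 detections of the type, with a pseudocount of 1, and 107184 regions had at least 50 detections. In control cells 8707 regions were at least 2-fold higher in neurons than in all other cells (8.12% of regions); among deficient cells 4904 were (4.58%). The 3704 regions on both lists were 42.5% of the control list and 75.5% of the deficient list. Regions at least 2-fold lower in neurons numbered 8337 (7.78%) among control and 3174 (2.96%) among deficient cells, with 1419 on both lists. Deficient neurons cut to the 3762392 detections of the control neurons gave 5238 higher and 5786 lower regions, both fewer than the control counts. At that depth 2245 regions were at least 4-fold higher in control neurons and 490 in deficient neurons. The other cells differed in make-up: proliferating tanycytes were 63 of 8066 in the control and 1033 of 10817 in the deficient library. How far this changed the counts was not tested. Since the annotation was made from these cells, the difference between neurons and other cells is a description.

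Regions that were high in neurons of both libraries sat near one another in the numbering of the regions. A region next to one of the 3704 in number was itself among them for 7.86%, against 3.45% of all regions, and at 10 steps the value was 4.81%. At 1000 steps it was 2.97%. Most of the 3704 nevertheless stood alone, 3148 of them with no neighbour on the list, and the longest run held 5 regions. No source used here says what the numbering follows.

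The 2 regions most particular to neurons serve as single examples. They were picked by the mean of both libraries' log2 ratios of neurons over other cells, in the same cells. Control ratios spread more widely, with a maximum of 4.32 against 3.23, so this choice can lean towards control neurons. Region 11516 was open in 109 of 882 control neurons (12.4%, 10.3 to 14.7%) and in 91 of 2520 deficient neurons (3.61%, 2.92 to 4.42%). In each other type it was found in 0 to 1.5% of cells in either library. Region 55904 was open in 112 control neurons (12.7%) and in 130 deficient neurons (5.16%). Outside neurons its share was at most 1.97% except in control proliferating tanycytes, where 4 of 63 cells had it. Both regions were thus less often found in deficient neurons. In pooled tanycytes they were too rare for a comparison, with log2 ratios without a pseudocount of -0.30 (-1.25 to 0.64) and 0.07 (-0.62 to 0.76). The 2 regions least open in neurons relative to all other cells were regions 12101 and 50682. Region 12101 was found in 4.54% of control and 1.59% of deficient neurons, against 22.3% and 7.73% of alpha2 tanycytes. Region 50682 was found in 3.63% and 2.66% of neurons, against 14.8% and 12.9% of alpha2 tanycytes. Low values were not particular to neurons: OPCs had region 12101 in 6.25% and 0.730% of cells and region 50682 in 2.96% and 2.92%.

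**Figure D1:**
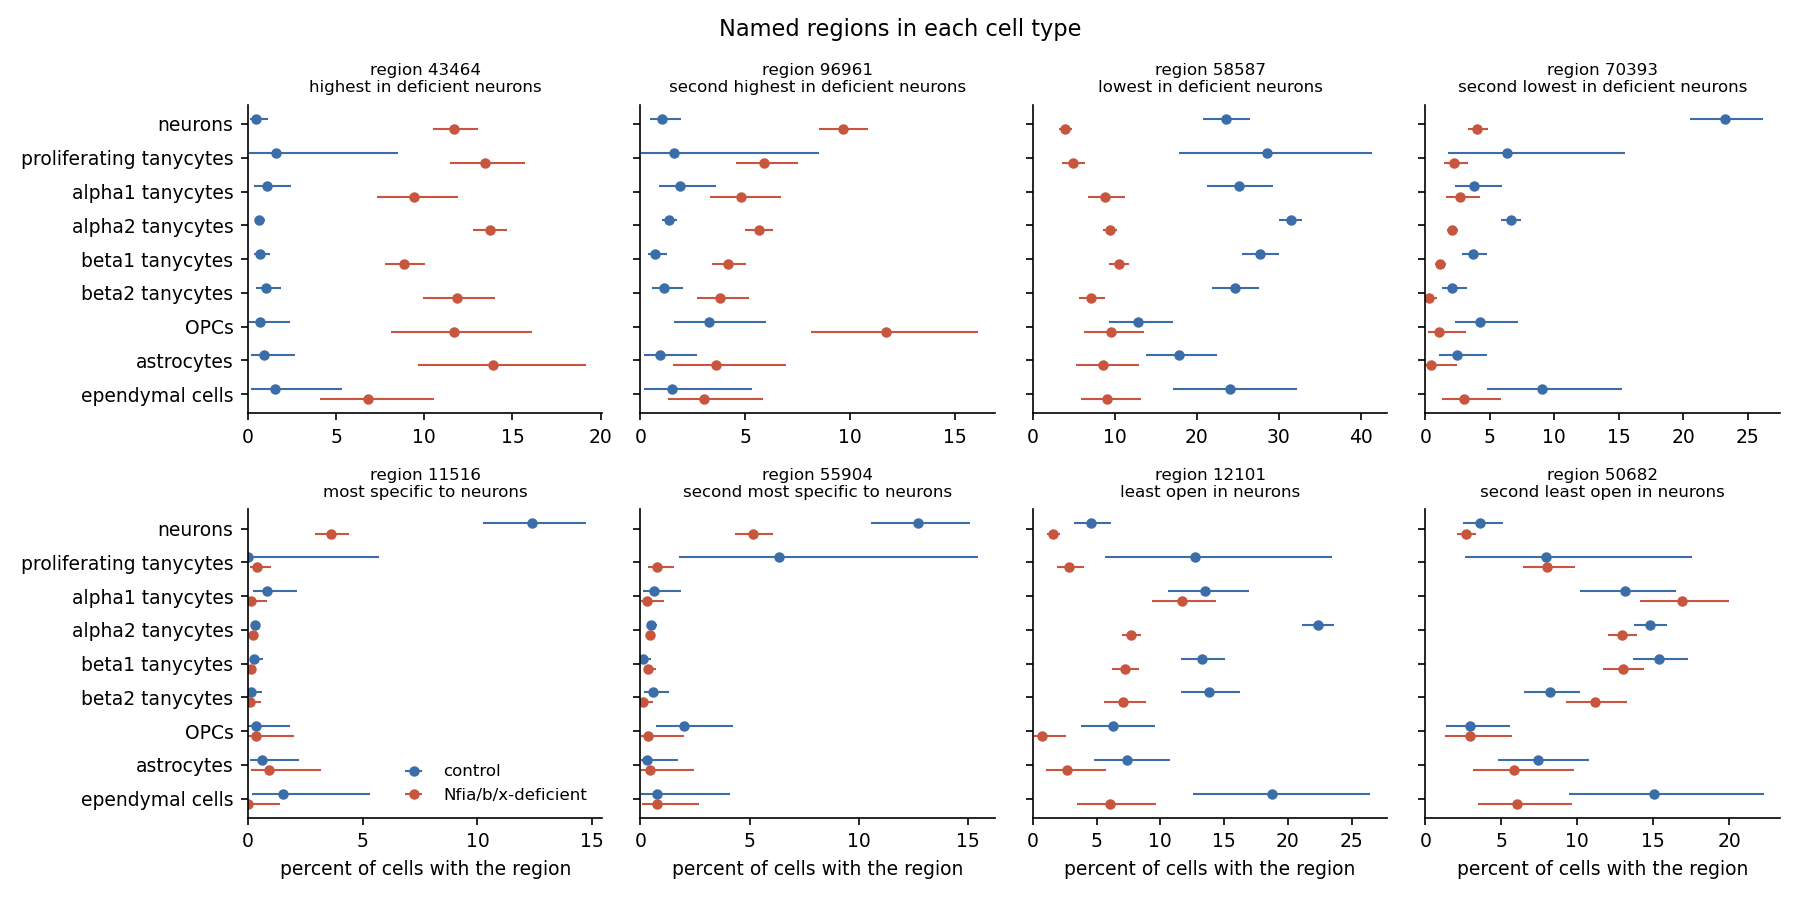
Percent of cells of each annotated type (y axis) in which each of 8 named regions was found (x axis), in the control (blue) and Nfia/b/x-deficient (red) library; bars are exact 95% binomial intervals for counting error. Regions 11516 and 55904 stand out in neurons, with 12.4% and 12.7% of control and 3.61% and 5.16% of deficient neurons, whereas region 43464 has a higher and region 58587 a lower value in the deficient library in all 9 types, with overlapping intervals in ependymal cells and in OPCs respectively.

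To follow the neuronal program beyond single regions, sets of 500 regions with the highest ratio of neurons over other cells were chosen in even-numbered cells and measured in odd-numbered cells. The set chosen in control neurons held 8.77 per 1000 detections of control neurons and 4.51 per 1000 of deficient neurons, a log2 ratio of -0.96 (-0.99 to -0.93), and 459 of its 500 regions were lower. The set chosen in deficient neurons took 7.23 and 6.38, a log2 ratio of -0.18 (-0.21 to -0.15), with 291 of 500 lower. A choice in 1 library favours that library, yet the deficient neurons were lower under both choices. The set chosen by the mean of both libraries took 9.05 in control and 5.75 in deficient neurons, a log2 ratio of -0.65 (-0.68 to -0.63), with 419 of 500 regions lower. This set shared 373 regions with the control choice and 282 with the deficient choice, so it too leaned towards control neurons. Over all 62373 regions tested in neurons the median log2 ratio was 0.05, and 55.1% of them were above 0.

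Regions differed by which library had picked them. The 214 regions picked in both libraries held 4.21 per 1000 detections of control neurons and 2.68 of deficient ones. The 286 regions picked in control neurons alone took 4.56 and 1.83, and the 286 picked in deficient neurons alone took 3.02 and 3.69, a log2 ratio of 0.29 (0.25 to 0.33). Each of these last numbers leans towards the library that picked it.

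Outside neurons the summed level of the same regions was higher in the deficient library. In all tanycytes the set chosen in both libraries held 0.634 per 1000 detections of control cells and 0.997 of deficient cells, a log2 ratio of 0.65 (0.62 to 0.68). Among the subtypes, which are named for their place along the ventricle wall, alpha1 tanycytes had a log2 ratio of 0.62, alpha2 of 0.60, beta1 of 0.67 and beta2 of 0.63. Proliferating tanycytes, of which the control library held 63, had one of 0.51. Astrocytes were at 0.69, ependymal cells at 0.40 and oligodendrocyte precursor cells (OPCs) at 0.23. By single regions the picture was less even: 379 of 500 were higher in alpha2 tanycytes, but in OPCs 200 were higher and 239 lower. Only 14 of the 500 regions had at least 20 detections in OPCs, against 417 in alpha2 tanycytes. The split in OPCs thus rests on very low counts and cannot be set against that in alpha2 tanycytes. Of all 62373 regions tested in neurons, 63.3% were above 0 in alpha2 tanycytes and 52.7% in OPCs. The median region of the set had a log2 ratio of 0 in OPCs and in ependymal cells. Control neurons held 14.3 times the level of pooled tanycytes at these regions, and deficient neurons 5.77 times. The smaller ratio came from a lower level in neurons and a higher one in tanycytes. For the set chosen in deficient cells, control neurons held 11.8 times and deficient neurons 6.25 times the level of pooled tanycytes.

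**Figure D2:**
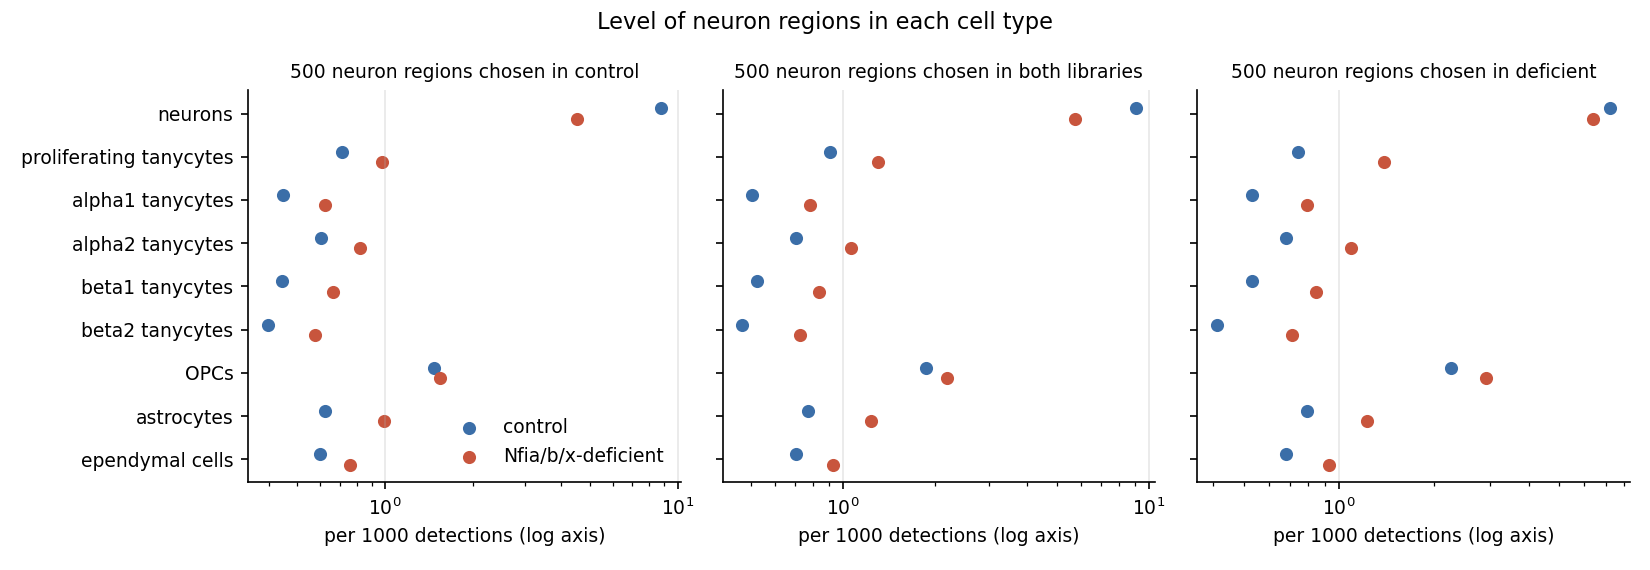
Level of 500 neuron regions in the odd-numbered cells of each type, as detections per 1000 detections of the type (log axis), for the set chosen in control cells, in both libraries and in deficient cells; blue points are the control and red points the Nfia/b/x-deficient library. In all 3 panels neurons are lower in the deficient library, with 9.05 against 5.75 for the set chosen in both, and every other type is higher, OPCs by less than counting error (log2 ratio 0.07, -0.06 to 0.21) for the set chosen in control cells.

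In single cells the lower level of deficient neurons showed in the quartiles and at the 95th percentile. It did not show at the 5th percentile or in the highest cell. Each cell was thinned to 2000 of its detections, which left 299 control and 975 deficient odd-numbered neurons. Of 2000 detections, control neurons had a median of 19 in the set chosen in both libraries, with quartiles of 9 and 31, and deficient neurons a median of 10, with quartiles of 5 and 16. The 5th percentile was 1 in control and 2 in deficient neurons, the 95th was 43 and 31, and the highest cell had 54 and 56. Tanycytes had a median of 1 in both libraries and OPCs of 3 and 4. Neurons with at least 30 such detections were 27.1% of control (22.1 to 32.5%) and 5.85% of deficient neurons (4.46 to 7.51%). At the other end, 12.4% of control neurons (8.86 to 16.7%) and 26.6% of deficient neurons (23.8 to 29.5%) were at or below the 95th percentile of the tanycytes of their library, which was 3 and 5 detections. The size of the gap depended on the set. With the set chosen in deficient cells the medians were 15 in control and 12 in deficient neurons, and the 95th percentiles 32 and 29. Neurons with at least 30 detections in that set were 10.7% of control and 4.82% of deficient neurons. Neurons were therefore a broad range of levels in both libraries and not a single tight group.

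**Figure D3:**
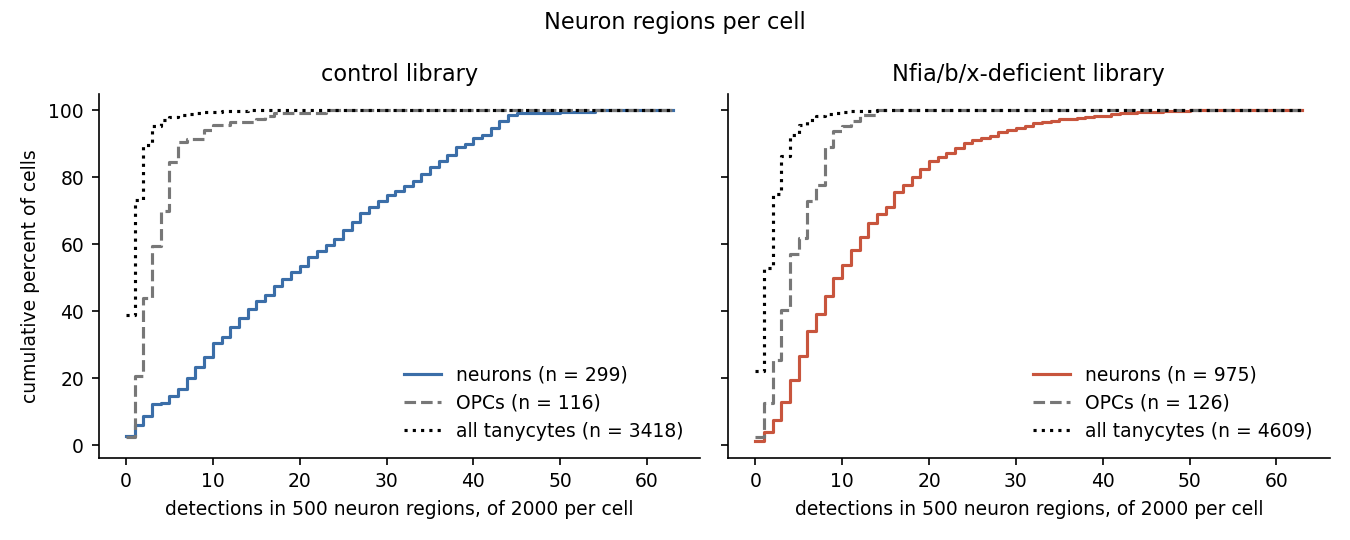
Cumulative percent of cells (y axis) against the number of detections in 500 neuron regions chosen in both libraries (x axis), for odd-numbered cells thinned to 2000 detections, with neurons as the coloured line, OPCs dashed and all tanycytes dotted. Neurons spread widely in both libraries, with a control median of 19 and an Nfia/b/x-deficient median of 10, and tanycytes have a median of 1. With the set chosen in deficient cells, not shown, the neuron medians are 15 and 12.

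Depth moved with this level inside the neurons. Neurons with 2000 to 4000 detections before thinning had medians of 25 in control (21 to 29) and 13 in deficient cells (12 to 15). From 4000 to 8000 the medians were 18 (14 to 23) and 8 (7 to 9), and at 8000 or more 10 (7 to 12) and 5 (4 to 6). The deepest neurons thus had the lowest share of neuron regions, and the deficient neurons were lower in each bin. The Spearman correlation of the level with depth was -0.41 over the 299 control and -0.41 over the 975 deficient neurons, as a description over cells of 1 library each. The part of doublets or of cells with 2 identities in the deepest neurons was not tested. Neurons that had at least 10 neuron-region detections and at least the tanycyte median of tanycyte regions were 13 of 299 control and 27 of 975 deficient neurons, with median depths of 7132 and 5461.

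Neurons with few neuron-region detections had more detections in tanycyte regions, and they were also the deepest neurons. Neurons were binned by their detections in every other region of the set, 250 regions, and a set of 500 tanycyte regions chosen in both libraries was read in each bin. Control neurons fell 15.1% at 0 to 2 detections, 15.1% at 3 to 5, 21.1% at 6 to 9 and 48.8% at 10 or more, and deficient neurons 24%, 31.1%, 25.1% and 19.8%. Median depth before thinning was 6660 in the lowest and 3883 in the highest bin of control neurons, and 5179 and 2760 in deficient neurons. Tanycyte regions took 6.24 of 2000 detections in the lowest bin of control neurons and 1.25 in the highest, and 4.15 and 1.29 in deficient neurons. In neurons with 0 to 9 neuron-region detections the deficient level of tanycyte regions was 0.650 to 0.712 of the control level, and in the highest bin the ratio was 1.03 (0.847 to 1.25). Over all neurons the ratio was 0.966 (0.898 to 1.04), since more of the deficient neurons were in the low bins. The 250 neuron regions not used for the bins were also lower in deficient neurons in the upper 3 bins, by ratios of 0.807 to 0.858, and higher in the lowest bin, 1.34 (1.06 to 1.71).

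Regions of proliferating tanycytes, the dividing class that came mostly from the deficient library, were more open in deficient neurons. The set was chosen in deficient cells alone, since the control library had too few such cells, and so leans towards the deficient library. It held 2.57 per 1000 detections of control neurons and 4.28 of deficient neurons, a log2 ratio of 0.74 (0.69 to 0.78). Of its 500 regions 418 were higher, where 55.1% of all regions tested in neurons were above 0. The difference held in each bin of neurons, with ratios of 1.54 (1.37 to 1.74), 1.49, 1.51 and 1.36 (1.24 to 1.5) from the lowest bin to the highest. Other types were also higher in the deficient library: alpha1 and alpha2 tanycytes each had a log2 ratio of 0.52 for the same set, beta1 tanycytes 0.50, beta2 tanycytes 0.42, OPCs 0.32 and astrocytes 0.24. A set of OPC regions chosen in control cells differed little in neurons, at 7.14 and 7.51 per 1000 detections, a log2 ratio of 0.07 (0.04 to 0.10). Astrocyte regions chosen in control cells were at 5.71 and 6.10 in neurons, a log2 ratio of 0.09, but at -0.14 when chosen in deficient cells.

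**Figure D4:**
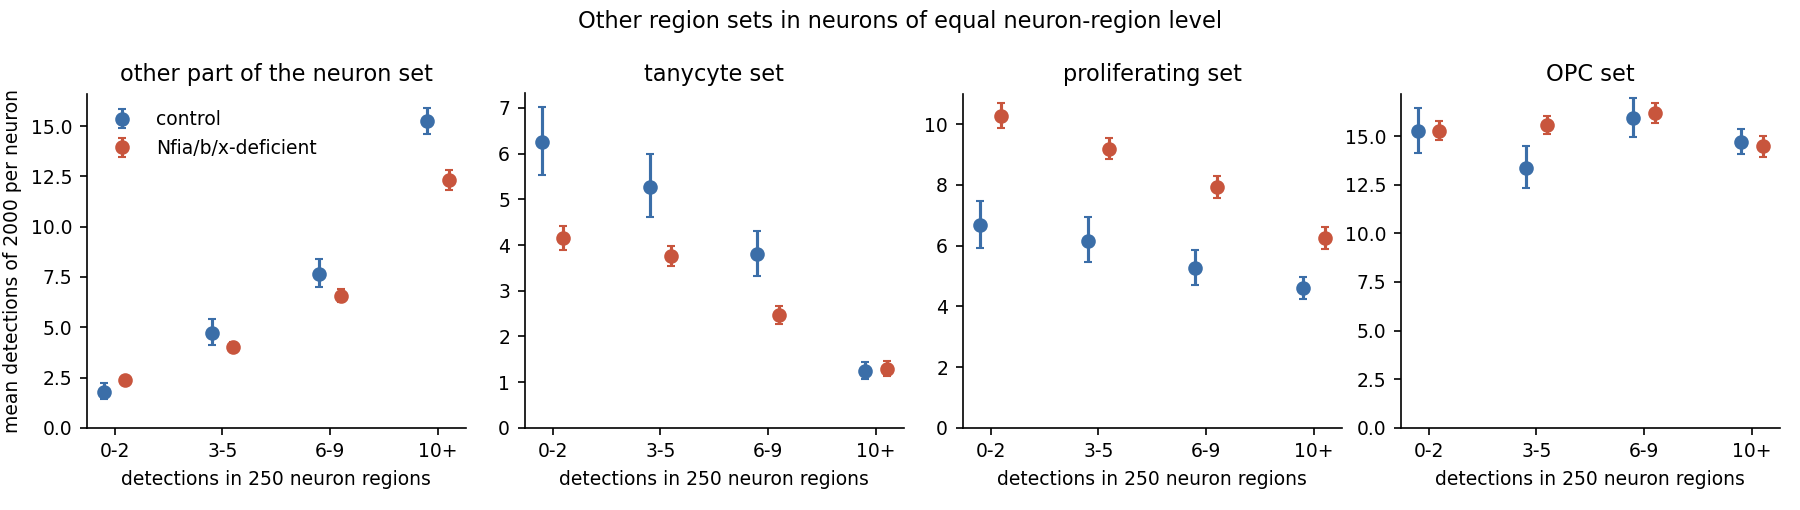
Mean detections of 2000 per neuron (y axis) in 4 region sets, for neurons binned by their detections in 250 neuron regions (x axis), in the control (blue) and Nfia/b/x-deficient (red) library; bars are exact 95% Poisson intervals for counting error. Tanycyte regions decline towards the highest bin in both libraries, from 6.24 to 1.25 and from 4.15 to 1.29, and regions of proliferating tanycytes are higher in deficient neurons in every bin.

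Region by region, deficient and control neurons differed in both directions. Of 62373 regions with at least 50 detections in neurons, 3763 were at least 2-fold higher in deficient neurons (6.03% of regions tested) and 3501 at least 2-fold lower (5.61%), so that higher regions were 51.8% of those past 2-fold. This split moved with the processing, to 46.2% under median-of-ratios scaling, 31.0% with a pseudocount of 5, 69.3% with a minimum of 200 detections and 68.4% in thinned neurons. Requiring the counting interval itself to lie past 2-fold left 646 higher (1.04%) and 1488 lower regions (2.39%). Among these, lower regions outnumbered higher ones. Neurons held 3762392 control and 9840566 deficient detections, so a higher region has a wider interval than a lower one of equal total and fold. This filter therefore favours lower regions, and how far that set the 2 counts was not tested. The 3763 higher regions together held 13.5 per 1000 detections of control neurons and 39.4 of deficient ones, and the 3501 lower regions 50.4 and 16.2. These regions were picked by their ratio in the same neurons, so a gap past 2-fold in these sums follows from the choice.

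The same regions were read in the other types. Since the regions were picked for their ratio in neurons, smaller ratios elsewhere follow from the choice and say nothing of the types. Where neurons were at least 2-fold higher, all tanycytes had a median log2 ratio of 0.58, against 0.09 over all regions tested, and the medians were 0.57 in alpha2 tanycytes, 0.46 in OPCs and 0.27 in astrocytes, and 96.2% of these regions were above 0 in tanycytes, against 64.7% of all regions tested. Where neurons were at least 2-fold lower, the medians were -0.60 in all tanycytes, -0.64 in alpha2 tanycytes, -0.51 in OPCs and -0.24 in astrocytes, and 17.4% were above 0 in tanycytes. Proliferating tanycytes, whose control library held 63 cells, went from 18.5 to 35.3 per 1000 detections at the higher regions and from 35.4 to 12.6 at the lower regions. Each type was compared between the same pair of libraries, so anything that set the libraries apart as a whole enters all of these values.

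The named regions with the most extreme ratios were shared with other types. Region 43464 was found in 4 of 882 control neurons (0.454%) and in 295 of 2520 deficient neurons (11.7%), a log2 ratio of 4.82 (3.45 to 6.70). It was in 0.650 to 1.59% of control cells and 6.79 to 13.9% of deficient cells of the other 8 types. Region 96961 was found in 9 control neurons (1.02%) and 243 deficient neurons (9.64%), a log2 ratio of 3.37 (2.42 to 4.51), and its value was higher in all 9 types, with overlapping intervals in proliferating and alpha1 tanycytes, astrocytes and ependymal cells. Region 58587 was found in 208 control neurons (23.6%) and 98 deficient neurons (3.89%), a log2 ratio of -2.47 (-2.83 to -2.12), and its value was lower in all 9 types, in OPCs with overlapping intervals, 12.8% (9.28 to 17.1%) and 9.49% (6.29 to 13.6%). Region 70393 was found in 205 control neurons (23.2%) and 101 deficient neurons (4.01%), a log2 ratio of -2.41 (-2.77 to -2.06). Unlike region 58587, it was chiefly neuronal, being found in 2.10 to 9.02% of other control cells by type. Its value was nevertheless also lower in all 9 types, with a log2 ratio of -1.32 (-1.59 to -1.06) in all tanycytes. Intervals overlapped in proliferating and alpha1 tanycytes, OPCs, astrocytes and ependymal cells.

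At equal depth and a minimum of 50 detections, neurons had the highest share of regions more open in the deficient library among the types compared. Proliferating tanycytes were left out, because the control library held only 320785 of their detections. With 900000 detections per type and library, 0.606% of neuron regions were higher by 2-fold and 0.744% lower. Among the tanycyte subtypes, alpha1 had 0.34% of regions higher, alpha2 0.257%, beta1 0.185% and beta2 0.197%. Higher regions were 0.277% in OPCs, 0.114% in astrocytes and 0.12% in ependymal cells. Alpha1 tanycytes had 1.31% of regions lower, alpha2 0.883%, beta1 1.02% and beta2 0.661%. Lower regions were 0.492% in OPCs, 0.322% in astrocytes and 0.197% in ependymal cells. Thus 3 tanycyte subtypes had a larger share of lower regions than neurons at this depth. With 2000000 detections, which neurons and 4 tanycyte subtypes reached, 2.63% of neuron regions were higher, against 0.914% for alpha1, 0.904% for alpha2, 0.586% for beta1 and 0.525% for beta2 tanycytes. Lower regions were 3.84% for neurons, 3.41% for alpha1, 3.37% for alpha2, 2.36% for beta1 and 2.26% for beta2 tanycytes. With a minimum of 100 detections at that depth, 50 of 10749 regions were higher in neurons (0.465%) and 1 to 11 in each tanycyte subtype. The same minimum at 900000 detections left almost nothing to compare, with 1 of 1606 regions higher in neurons (0.0623%), 1 of 1043 in ependymal cells (0.0959%) and 0 in the other types. At 2000000 detections the gap between neurons and tanycytes was wider for higher than for lower regions, and this difference between types was not tested.

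**Figure D5:**
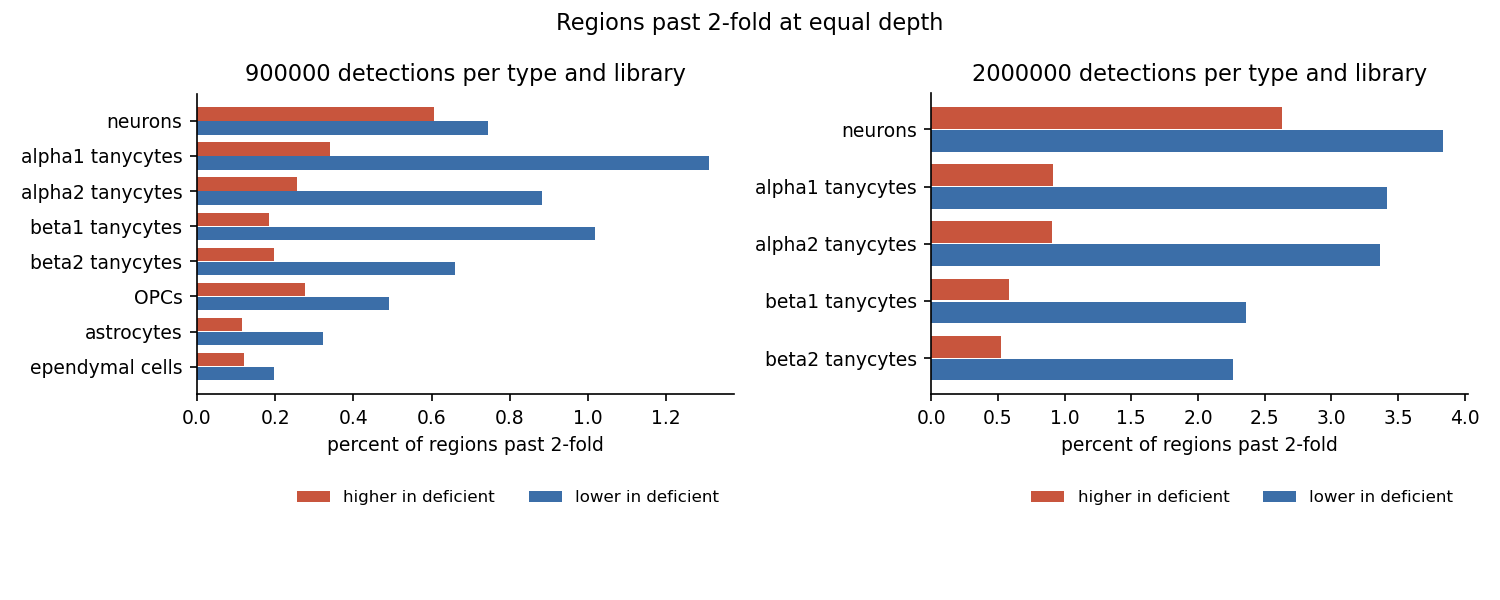
Percent of regions at least 2-fold higher (red) or lower (blue) in the Nfia/b/x-deficient library (x axis) for 8 types with 900000 detections per type and library on the left and 5 types with 2000000 on the right (y axis), with a minimum of 50 detections. Proliferating tanycytes had too few control detections and are not shown. Neurons have the longest red bar at both depths, 0.606% and 2.63%.

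Whole profiles placed control and deficient neurons differently among the other types. Over 30019 regions found in at least 1000 cells, at 900000 detections per type and library, the Pearson correlation of log2 detections between control and deficient neurons was 0.79. Regions share libraries and depth here, and the values are descriptions. For control neurons this was the highest value, followed by control OPCs at 0.75, deficient OPCs at 0.74 and control alpha2 tanycytes at 0.73. For deficient neurons, deficient proliferating tanycytes came first at 0.80, then control neurons at 0.79 and deficient alpha2 tanycytes and deficient OPCs at 0.77 each. Among the 3207 regions found in at least 5000 cells the order changed: deficient neurons were closest to control neurons, at 0.73, followed by deficient OPCs at 0.65 and deficient proliferating tanycytes at 0.61.

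Single neurons gave a related picture. For each cell the closest of 9 type profiles was found, each profile being drawn from cells of both libraries that did not include it. Of control neurons 76.8% were assigned to neurons, 9.98% to alpha2 tanycytes, 6.58% to OPCs, 3.51% to beta1 tanycytes and 0 of 882 to proliferating tanycytes (interval up to 0.417%). Of deficient neurons 78.1% were assigned to neurons, 16.8% to proliferating tanycytes (424 cells), 1.94% to alpha2 tanycytes and 0.833% to OPCs. The neurons that moved to another type were deeper, with median detections of 5524 against 2799 among control and 5020 against 2947 among deficient neurons. The profile of proliferating tanycytes came mostly from deficient cells, and its pull on other deficient cells cannot be told apart from a likeness of the cell types. Few other cells were drawn to neurons: 3 of 4306 control and 52 of 4902 deficient alpha2 tanycytes, and 12 of 274 deficient OPCs (4.38%).

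Pairs of neurons were about as alike as pairs of tanycytes. With each cell thinned to 2000 detections, 2 control neurons shared 109.6 regions on average, 2 deficient neurons 107.3, and a control with a deficient neuron 105.5. Control neurons shared 93.9 to 103.9 regions with cells of other types, and deficient neurons 94.2 to 105.2, the highest being deficient proliferating tanycytes. Pairs within a tanycyte subtype shared 106.0 to 113.5 regions among control and 102.4 to 108.8 among deficient cells. Between the libraries, pairs of neurons differed by a ratio of 0.980.

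Clustering the neurons of each library alone on thinned cells divided them best into 2 sub-groups, but the separation was weak, with silhouette values of 0.17 in both libraries. In control neurons sub-group 1 held 331 cells with a mean of 29.1 neuron-region and 0.918 tanycyte-region detections of 2000, and sub-group 2 held 271 cells with 8.80 and 4.90. In deficient neurons sub-group 1 held 808 cells with 19.9 and 1.75, and sub-group 2 held 1152 cells with 7.21 and 3.42. These regions took part in the clustering and describe the sub-groups without testing them. The sub-groups took in all 602 control and 1960 deficient neurons with at least 2000 detections. That includes the even-numbered cells used to choose the sets. Sub-group 2 was deeper in both libraries, with median detections of 6122 against 3855 and 4708.5 against 3196.5. At equal depth the first sub-groups of both libraries correlated at 0.79 over regions and the second ones at 0.67. Deficient sub-group 2 was nearer to deficient sub-group 1, at 0.75, than to control sub-group 2. Pairs of cells shared 122 and 118 regions within the first sub-groups and 102 and 104 within the second ones, so the sub-groups also differ in how alike their own cells are.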

How the data were processed

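Single-cell ATAC-seq of GFP-positive cells was deposited as 1 matrix of 107377 regions by 22285 cells with 112651747 entries, plus an annotation giving each cell's type. The unit is other: the authors' deposited entries are presence or absence of a region in a cell, with no fragment count. Per the labels' protocols, Cell Ranger ATAC 1.1.0 was run at its defaults. The submitters' processing notes name mm10, Signac 0.2.5, Seurat and MACS2 with no roles. No source used here gives the handling of regions, cell filters, doublets and types, and doublets were not called again. Column order in the matrix was read as the line order of the annotation. The nearest-profile step gave 75.4% of control and 60.0% of deficient cells their annotated type.

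Levels are summed detections of a type and library relative to its total. A cell adds at most 1 to a region, which understates regions that most cells have open. Log2 ratios of regions used a pseudocount of 1 per 1000000 and a minimum of 50 detections. Those printed with an interval for named regions used no pseudocount. Named regions are, by rule, the 2 highest and 2 lowest between deficient and control neurons with at least 200 detections, the 2 most specific to neurons by the mean log2 ratio of both libraries (at least 200 detections) and the 2 least open ones (at least 2000 in all cells). Set regions needed at least 20 detections in the type. Shares have Clopper-Pearson intervals, sums exact Poisson intervals and ratios exact conditional binomial intervals. Equal depth was reached by drawing cells and detections at random with a fixed seed. Type profiles for assignment held 800000 detections, with 0.5 added per region. Sub-groups came from k-means (2 to 6 groups) on 10 components of regions found in at least 1% of neurons. Regions have numbers only, so the markers written down for neurons, tanycytes, astrocytes, OPCs, ependymal cells, microglia and endothelium could not be used. The members and lists were chosen with earlier results of these data known. The scripts were tested on simulated data. Python 3.11.15, numpy 2.4.6, scipy 1.17.1, pandas 2.3.3, scikit-learn 1.9.0 and matplotlib 3.10.9 were used. Alternatives were other pseudocounts, minimums, scaling, set sizes, choosing libraries, thinning depths, the deepest 5% left out and reassigned types.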

Additional observations from a re-analysis of the deposited data

Results flagged for a closer look

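The neuron regions chosen in both libraries had a log2 ratio of deficient over control of -0.65 in neurons and 0.65 in tanycytes. The opposite direction in the 2 kinds of cells drew attention to this result. The set leaned towards control neurons, and the set chosen in deficient cells had a log2 ratio of -0.18 in neurons. With 1 library per genotype the difference was not tested.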

How the results depend on the processing

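No paired analysis was possible because each genotype had 1 library. No single ratio or difference listed here changed sign under the alternatives run, but which direction held more regions past 2-fold did, and so did the type closest to deficient neurons. The log2 ratio of the control-chosen neuron set, -0.96, was -1.06 in thinned neurons, -0.86 with 1000 and -1.13 with 200 regions, -0.65 when chosen in both libraries (added after the data were seen) and -0.18 with the deficient library's own choice. The median difference per cell, -5.5 per 1000 detections, was -1.5 (-3 to 0) with the deficient-chosen set. The ratio of neuron shares was 2.22 in cells with at least 2000 detections. The counts of 3763 higher (6.03%) and 3501 lower regions (5.61%) came from 62373 regions tested. With no minimum they were 6191 (5.77%) and 6711 (6.25%) of 107377, and with a minimum of 200 they were 428 (2.29%) and 190 (1.02%) of 18665. Thinned neurons gave 1790 (6.51%) and 828 (3.01%) of 27508. Of the same 62373 regions, a pseudocount of 5 gave 609 (0.976%) and 1358 (2.18%), and median-of-ratios scaling 3286 (5.27%) and 3824 (6.13%). The correlation of neuron profiles was 0.77 over regions found in at least 200 cells and 0.73 at 5000 cells. The ratio of regions shared by pairs was 0.958 at 1000 detections per cell and 0.975 without the deepest 5% of cells. Equal-depth draws, depth bins and bins of neurons were chosen after seeing the data. The cause of these changes was not tested.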
